A study of Homo sapiens with 16 samples.

Results

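The transcriptional response of cells labelled Huh7 to sorafenib was set against their response to overexpression of the metallothionein gene MT1G, gene by gene, to find the genes on which the responses differ or oppose each other. For each gene the response to sorafenib was its mean log2(normalized read count + 1) with sorafenib minus that with DMSO, the response to MT1G was the same value with MT1G overexpression minus that with empty vector, and the difference was the sorafenib response minus the MT1G response. A positive difference therefore means that a gene stood higher, relative to its own control, with sorafenib than with MT1G, and all responses and differences below are on this log2 scale. Genes were joined by name between the tables and kept where their mean normalized read count was at least 10 in both. Of the 59609 genes in both tables, 13748 reached that minimum, 1167 reached it in the sorafenib table only and 166 in the MT1G table only.

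Huh7 is an established human hepatocellular carcinoma line. One experiment held 3 polyA RNA libraries from cells given the solvent DMSO and 3 from cells given sorafenib, and the other held 3 from cells with an empty vector and 3 from cells overexpressing MT1G. The labels give no dose, time, vector type or clone, and do not say that the libraries of a group came from separate cultures, so p-values measure the spread between these libraries, which may be technical. No group combined sorafenib with MT1G, and none shared a control with the other experiment.

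Sorafenib is a multikinase inhibitor used against liver cancer that acts on RAF kinases and on receptor tyrosine kinases such as those for VEGF and PDGF. Metallothioneins are small cysteine-rich proteins that bind zinc, copper and cadmium, and their genes are switched on by the zinc-sensing factor MTF1 at metal response elements. Interferon-stimulated genes encode antiviral proteins and are switched on by interferon or viral RNA sensing through interferon-stimulated response elements.

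The libraries held 16549330 to 26781600 reads in genes. MT1G, on chromosome 16 from 56666730 to 56668065 (GRCh38.p14), had 0 reads in all 6 control libraries. It stood at normalized read counts of 189, 158 and 194 with sorafenib and at 140, 130 and 179 with overexpression, so the treated and control groups did not overlap in either experiment. Setting each control group at 3 reads in all, MT1G was at least 170-fold higher with sorafenib and at least 142-fold higher with overexpression. Reads of an introduced copy and of the cell's own gene cannot be told apart in these values. The label of the cells was checked against liver genes: of 35 hepatocyte genes only CPS1, ASS1, ASL, HNF4A and CEBPA reached the minimum, and ALB, APOB, APOH, GPC3 and FOXA2 were at 0 in every library. The mean of AFP was at most 2.29 in any group, while CPS1 stood at 17160 with DMSO and at 19350 with empty vector. Huh7 cells are known to make albumin, apolipoprotein B and alpha-fetoprotein, so these values go against the label, and the cells are called Huh7 here only as labelled. In such bulk values, fewer cells of a kind and less RNA per cell cannot be told apart.

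Sorafenib moved more genes than MT1G, and the responses differed for most of the genes called. With limma at an adjusted p of 0.05, sorafenib raised 4074 genes (29.6% of those tested) and lowered 5102 (37.1%), for 66.7% in all, and MT1G raised 1956 (14.2%) and lowered 2054 (14.9%), for 29.2%. The difference of the responses passed for 7471 genes (54.3%), of which 3349 were positive (24.4%) and 4122 negative (30%). A difference of at least 1 on the log2 scale was called for 1230 positive (8.95%) and 1255 negative genes (9.13%). The largest classes of differing genes were called with sorafenib only, 2227 up (16.2%) and 2515 down (18.3%), while 366 up (2.66%) and 328 down (2.39%) were called with MT1G only and 214 (1.56%) with neither. The median absolute response was 0.45 to sorafenib and 0.20 to MT1G. Of 2882 genes called in both experiments (21%), 1779 moved in the same direction (12.9% of genes tested) and 1103 in opposite directions (8.02%). Counts for the gene lists below are to be read beside these shares over all genes tested.

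The opposed genes fell into 697 that were lower with sorafenib and higher with MT1G (5.07%) and 406 that were higher with sorafenib and lower with MT1G (2.95%). The median responses were -0.62 to sorafenib and 0.42 to MT1G in the first class, and 0.47 and -0.34 in the second. Both responses reached 0.5 in size for 195 of the 697 genes and for 69 of the 406, and reached 1 for 28 and 5. Treated and control libraries did not overlap in either experiment for 644 of the 697 and 369 of the 406. Among all genes tested, each experiment taken alone, the share was 72.7% for sorafenib and 39.5% for MT1G. The opposed genes were selected by calls in both experiments, so their separation follows largely from that selection and is no further support. Without empty vector library 3 the opposed genes numbered 770 in all instead of 1103, and the second class held 268 instead of 406. With any 1 library left out, the first class held 502 at the lowest, instead of 697.

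**Figure D1:**
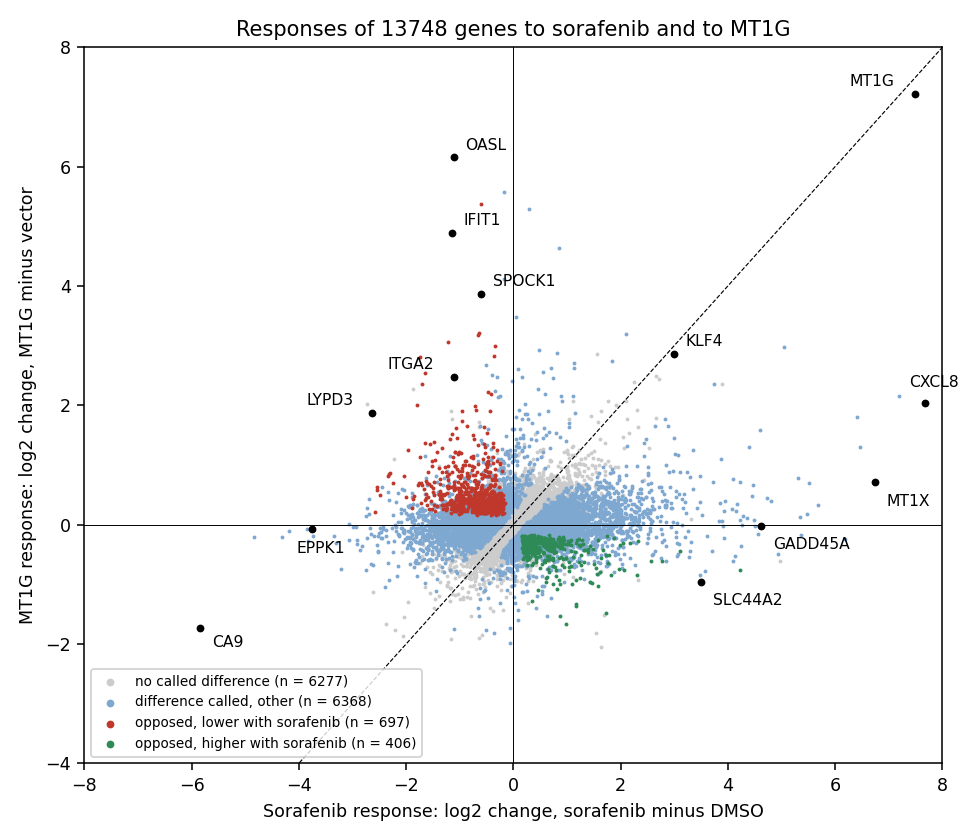
Response of each of 13748 genes to sorafenib (horizontal axis, log2 change against DMSO) and to MT1G (vertical axis, log2 change against empty vector), with the dashed line where both are equal. Red points mark the 697 genes lower with sorafenib and higher with MT1G and green points the 406 opposed in the other direction; OASL and IFIT1 lie high above the line and SLC44A2 below it.

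Interferon-stimulated genes were among those with the most negative differences. OASL, an interferon-induced relative of the oligoadenylate synthetases (chromosome 12, 121017761 to 121039246), had normalized read counts of 234, 222 and 223 with sorafenib and 451, 485 and 541 with DMSO. It stood at 13910, 12370 and 12610 with MT1G and at 167, 198 and 179 with empty vector. Every sorafenib library was below every DMSO library, and every MT1G library was far above the vector libraries. The responses of OASL were -1.11 to sorafenib and 6.16 to MT1G, a difference of -7.27 (SE 0.12, limma adjusted p 7.56e-21).

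IFIT1, which binds viral RNA lacking a self-type cap (chromosome 10, 89392623 to 89406487), stood at 96.2, 89.7 and 89.7 with sorafenib and at 201, 218 and 193 with DMSO. Its normalized read counts were 2373, 2786 and 2437 with MT1G and 73.5, 106 and 75.8 with empty vector. The groups did not overlap in either experiment, and the difference was -6.03 (SE 0.18, limma adjusted p 1.09e-16). ISG15, a ubiquitin-like modifier, was at 943, 868 and 849 with sorafenib and at 979, 884 and 1151 with DMSO, where the groups overlapped. With MT1G it was at 13040, 12200 and 13560 against 701, 780 and 744 with empty vector, and the difference was -4.30 (SE 0.12, limma adjusted p 5.85e-17). IFIT2 and IFIT3 rose in both experiments, by 0.29 and 0.86 with sorafenib and by 5.29 and 4.63 with MT1G on the log2 scale.

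Of 44 interferon-stimulated genes, 32 reached the minimum. Some of the 12 others missed it through the sorafenib table, such as OAS2, CXCL10 and CXCL11, with group means of at most 4.21 there. Their means with MT1G were 284, 80.7 and 75.5, against 1.56, 1.14 and 0.597 with empty vector. Others, such as XAF1, at 0 in every library, had few or no reads throughout. The counts therefore leave out some genes seen mainly with MT1G. With MT1G 22 of the 32 rose and 2 fell, while with sorafenib 7 rose and 17 fell. The difference was negative for 26, positive for 1 and not called for 5, and its median was -1.29 beside -0.054 over all genes tested. The median responses of the 32 were -0.46 to sorafenib and 0.73 to MT1G, beside -0.080 and -0.0015 over all genes. Those lower with sorafenib and higher with MT1G were OASL, IFIT1, SAMD9, HERC5, ISG20, OAS1, IFI6, UBE2L6, GBP1, PARP9 and PARP14. TRIM25, a ubiquitin ligase of RNA sensing, was opposed the other way at 0.21 and -0.23. IFITM1, IFITM2 and IFITM3, close paralogs whose reads the counting could split, fell with sorafenib, and of these only IFITM2 also fell with MT1G.

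Promoters were searched on both strands for a common form of the interferon-stimulated response element, the letters GAAA followed after any 2 bases by GAAAC, from 250 bases before to 50 after each RefSeq gene start (GRCh38.p14). They occurred in 17 of the 28 interferon-stimulated genes with a promoter sequence (60.7%), beside 0.798% of all 27305 promoters and 0.725% of the 9933 of genes tested. Of the 17 genes with a match 12 rose with MT1G and 9 fell with sorafenib, and of the 11 without one 7 rose with MT1G and 6 fell with sorafenib. OAS3, BST2, IFITM1, IFITM3 and MX1 had a match and were not called with MT1G. The list holds known interferon-stimulated genes, so its share is no test of the responses. Among all genes lower with sorafenib and higher with MT1G, only 7 of 548 promoters held the letters (1.28%), and 0 of 317 for the reverse. The letters were in 12 of 874 promoters with a called difference of -1 or below (1.37%). For 1 or above they were in 5 of 757 (0.66%). The 200 bases upstream of IFIT1, ISG15 and HERC5, an ISG15 ligase, show where the matches, in capitals, lie. All 3 are on the plus strand, at chr10:89392423-89392622, chr1:1013297-1013496 and chr4:88456919-88457118. The match in IFIT1 begins 117 bases before the start, those in ISG15 overlap, and HERC5 has 2 apart.
IFIT1: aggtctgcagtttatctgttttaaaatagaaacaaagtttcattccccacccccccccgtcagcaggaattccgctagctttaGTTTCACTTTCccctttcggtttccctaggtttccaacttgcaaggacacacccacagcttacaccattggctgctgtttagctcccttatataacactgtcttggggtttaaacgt
ISG15: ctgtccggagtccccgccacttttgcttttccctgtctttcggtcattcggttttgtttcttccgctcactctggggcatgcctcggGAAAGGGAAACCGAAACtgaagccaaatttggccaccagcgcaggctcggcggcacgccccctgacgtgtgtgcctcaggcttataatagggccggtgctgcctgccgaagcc
HERC5: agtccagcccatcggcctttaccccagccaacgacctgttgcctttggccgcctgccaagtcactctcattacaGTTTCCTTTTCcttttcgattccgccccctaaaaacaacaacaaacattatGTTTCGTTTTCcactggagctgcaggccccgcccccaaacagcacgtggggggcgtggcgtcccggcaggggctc

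The genes that sense viral RNA and carry the interferon signal were split. DDX58, which encodes the RNA sensor RIG-I, was at normalized read counts of 739, 1015 and 676 with MT1G and at 71.3, 75.2 and 65.3 with empty vector. It was at 137, 145 and 130 with sorafenib and at 133, 158 and 109 with DMSO, where the groups overlapped. Its difference was -3.42 (SE 0.21, limma adjusted p 2.13e-11). The sensors IFIH1 and DHX58 rose with both, more with MT1G. IRF1, an interferon regulatory factor, rose more with sorafenib than with MT1G. It was at 1982, 1997 and 2240 with sorafenib against 285, 316 and 343 with DMSO, and at 452, 415 and 451 with MT1G against 291, 277 and 280. It rose in both experiments and its difference was 2.08 (SE 0.12, limma adjusted p 1.24e-11). MAVS, the adaptor below the RNA sensors, fell with sorafenib by 1.43 and had a response of -0.17 to MT1G that was not called. TBK1, its kinase, was opposed at -0.72 and 0.49. Of 26 genes of this list tested, the difference was positive for 6 and negative for 13, beside 24.4% and 30% of all genes tested. IFNB1, IFNL1, IFNL2 and IFNL3, the interferon genes on the list, did not reach the minimum.

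**Figure D2:**
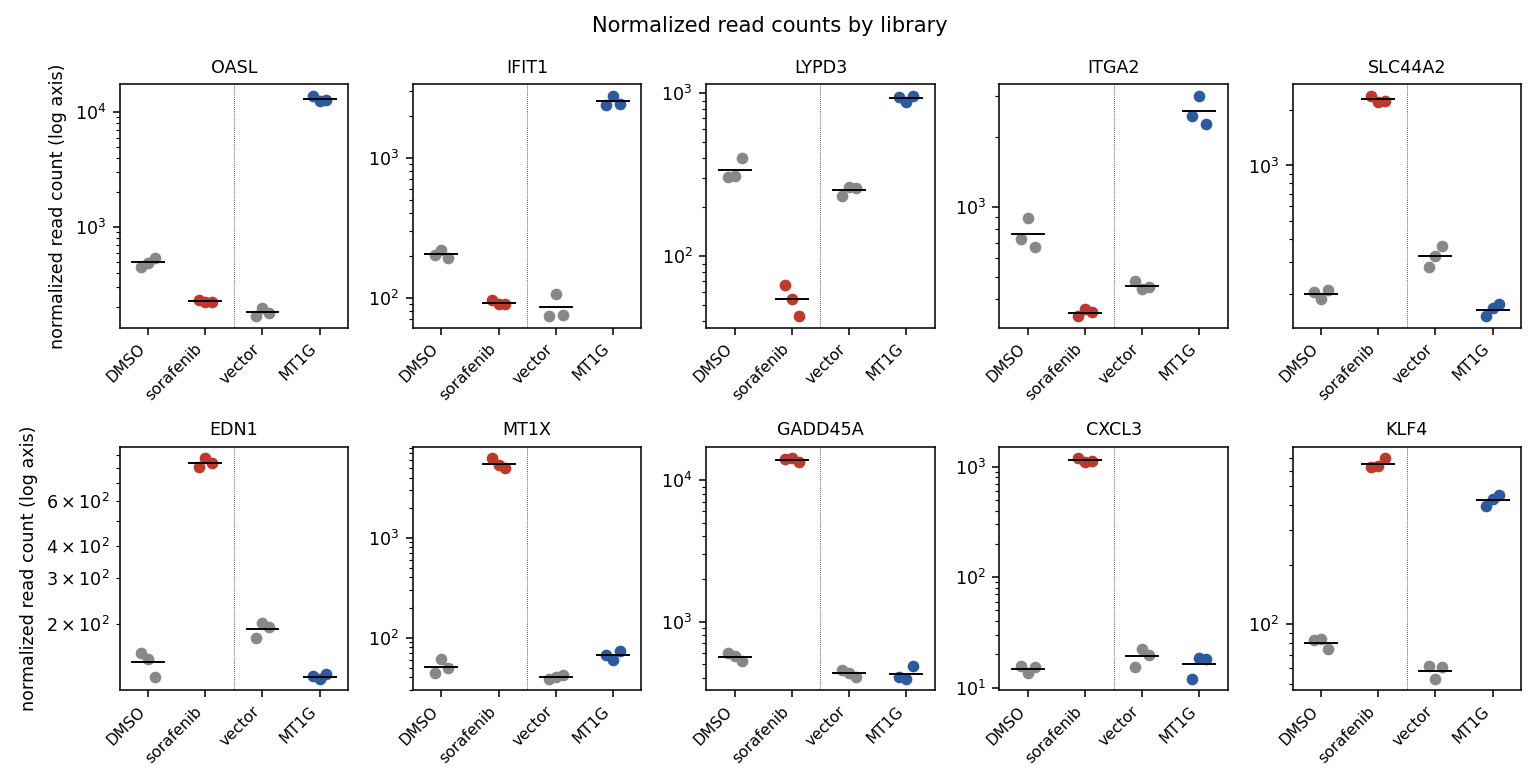
Normalized read counts (log axis) of 10 genes in each library, with 1 point per library and a bar at the group mean; the sorafenib table stands left of the dotted line and the MT1G table right of it, and they were normalized separately. OASL, IFIT1, LYPD3 and ITGA2 are low with sorafenib and high with MT1G, SLC44A2 and EDN1 the reverse, and KLF4 is high with both.

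Genes for attachment to the extracellular matrix were among those lower with sorafenib and higher with MT1G. Integrins are pairs of alpha and beta subunits that bind collagen, laminin or fibronectin, and the integrin list was drawn up after values had been seen. ITGA2, a collagen receptor subunit (chromosome 5, 52989352 to 53094779), stood at 338, 363 and 351 with sorafenib and at 730, 898 and 669 with DMSO. It was at 2446, 3010 and 2272 with MT1G and at 479, 442 and 450 with empty vector. The groups were apart in both experiments, and the difference was -3.60 (SE 0.15, limma adjusted p 5.21e-14). ITGA1, another collagen receptor subunit, had responses of -1.08 and 1.62, and ITGB1, the beta subunit they share, -1.25 and 0.53.

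Of 26 integrin subunits, 16 reached the minimum, and 8 of these were lower with sorafenib and higher with MT1G: ITGA1, ITGA2, ITGA3, ITGA5, ITGA6, ITGAV, ITGB1 and ITGB5. With sorafenib 10 fell and 1 rose, and with MT1G 10 rose and 0 fell. The difference was negative for 12, not called for 4 and positive for 0, with a median of -1.03. ITGB8 rose in both experiments, by 2.09 and 3.20. FN1, which encodes the integrin ligand fibronectin, was at 550, 586 and 592 with sorafenib against 787, 724 and 689 with DMSO, and at 4873, 4364 and 4057 with MT1G against 537, 577 and 545. Its difference was -3.34 (SE 0.11, limma adjusted p 8.25e-16).

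SPOCK1, which encodes the matrix proteoglycan testican-1, was at 160, 151 and 162 with sorafenib, 233, 256 and 230 with DMSO, 1730, 1746 and 1577 with MT1G and 116, 117 and 109 with empty vector. The groups were apart in both experiments and the difference was -4.47 (SE 0.13, limma adjusted p 1.45e-16). The small matrix proteoglycan genes LUM and DCN were opposed as well, at -1.99 and 0.46 and at -1.10 and 0.98. Both are also stellate cell markers. Of 10 such markers 7 reached the minimum, LRAT was at 0 in every library and COL1A2 at 0 in both control groups. With sorafenib 2 of the 7 rose and 3 fell, with MT1G 2 rose and 0 fell, and the difference was positive for 2 and negative for 3. RGS5, a regulator of G protein signalling and another of these markers, rose by 2.17 with sorafenib and had a response of 0.02 to MT1G that was not called. The part of such cells in these values was not tested. Of 23 tested genes of the mesenchymal transition list 9 rose and 9 fell with sorafenib, and 11 rose and 2 fell with MT1G. Over all genes tested 29.6% rose and 37.1% fell with sorafenib, and 14.2% rose and 14.9% fell with MT1G. THBS1 was opposed the other way, at 1.44 and -0.35, and the transcription factor genes SNAI1 and SNAI2 rose with sorafenib, by 2.56 and 3.07, beside responses of 0.22, not called, and 1.16, called, to MT1G.

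LYPD3 and AMIGO2, both at the cell surface, were also lower with sorafenib and higher with MT1G. LYPD3, a lipid-anchored surface protein (chromosome 19, 43460787 to 43465608), was at 66.7, 54.4 and 42.7 with sorafenib and at 307, 310 and 402 with DMSO. It was at 942, 879 and 967 with MT1G and at 234, 266 and 261 with empty vector, so that the groups were apart in both. Its responses were -2.63 and 1.87 and the difference was -4.50 (SE 0.19, limma adjusted p 6.29e-14). AMIGO2, a leucine-rich repeat adhesion protein, stood at 355, 366 and 313 with sorafenib against 1376, 1406 and 1263 with DMSO. With MT1G it stood at 1939, 1934 and 2148 against 843, 853 and 835, and the difference was -3.21 (SE 0.11, limma adjusted p 1.28e-15).

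SLC1A1, a glutamate and cysteine transporter, had responses of -1.32 and 1.29, UNC13A, a synaptic vesicle priming factor, -1.18 and 1.44, and APOL1, an apolipoprotein of innate immunity, -1.74 and 1.14. All 3 differences passed the test, with limma adjusted p-values of 6.56e-10, 3.51e-14 and 1.21e-14. The cystine transporter gene SLC7A11 was opposed at -1.19 and 0.64, the aldo-keto reductase gene AKR1C1 at -2.24 and 0.70, and the cytokine gene IL11 at -2.31 and 0.85. AKR1C1 has close paralogs, so its reads are uncertain. SERPINB5, EPGN, SORBS2, ANGPTL4 and CYP1B1 were among the 28 genes of this class whose responses both reached 1.

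Among the genes higher with sorafenib and lower with MT1G at a mean of at least 100 in both tables, SLC44A2 had the largest difference. SLC44A2, a choline transporter-like protein (chromosome 19, 10602455 to 10644557), was at 2401, 2209 and 2247 with sorafenib and at 205, 188 and 211 with DMSO. It was at 151, 168 and 176 with MT1G and at 282, 321 and 364 with empty vector. No group overlapped its control, and with responses of 3.501 and -0.96 the difference was 4.46 (SE 0.14, limma adjusted p 3.57e-16).

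GPNMB, a transmembrane glycoprotein of lysosomes and melanosomes, was at 405, 377 and 399 with sorafenib against 115, 120 and 151 with DMSO, and at 156, 138 and 127 with MT1G against 225, 282 and 230. The difference of GPNMB was 2.42 (SE 0.18, limma adjusted p 4.29e-10). ELF3, an epithelial ETS transcription factor, was at 4016, 3903 and 4007 with sorafenib against 2280, 2269 and 2642 with DMSO, and at 1573, 1405 and 1450 with MT1G against 2276, 2438 and 2464. The groups were apart in both experiments, and the difference was 1.43 (SE 0.10, limma adjusted p 1.55e-10). DCLK2, a doublecortin-like kinase, ICAM5, an adhesion molecule best known from neurons, and PRELID3A were opposed the same way, with sorafenib responses of 0.78 to 1.04 and MT1G responses of -0.93 to -0.71.

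Several further genes of this direction were chosen after their values were seen. EDN1, the vasoconstrictor endothelin-1, was at 807, 876 and 841 with sorafenib against 154, 146 and 124 with DMSO, and at 125, 122 and 127 with MT1G against 176, 200 and 195, a difference of 3.17 (SE 0.15). TXNIP, a thioredoxin-binding arrestin that limits glucose uptake, was at 7985, 7873 and 8161 with sorafenib against 2314, 2443 and 2493, and at 1721, 1536 and 1539 with MT1G against 2149, 2418 and 2258. Its relative ARRDC4 was opposed at 1.83 and -0.84, and MLXIPL, the glucose-sensing factor that drives both genes, at 0.60 and -0.97. MLX and MLXIP, the other genes of this list, were not opposed. Of the 5 genes 3 rose and 0 fell with sorafenib, 0 rose and 4 fell with MT1G, and 4 had a positive difference. The cold-inducible RNA-binding protein gene CIRBP was opposed at 1.26 and -0.51.

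Among the metallothionein genes tested, those with reads in the control libraries rose in both experiments and more with sorafenib. MT1X (chromosome 16, 56682470 to 56684196) was at normalized read counts of 6289, 5322 and 5028 with sorafenib and at 43.9, 60.7 and 49.1 with DMSO. It was at 67.6, 59.3 and 73.2 with MT1G and at 38.4, 40.3 and 42.0 with empty vector. The groups were apart in both, but the response was 6.74 to sorafenib and 0.71 to MT1G, a difference of 6.03 (SE 0.19, limma adjusted p 3.57e-16). MT1F, MT1E and MT2A gave differences of 4.83, 3.81 and 2.76. Of 10 metallothionein genes 5 reached the minimum. One of them was MT1G itself, which reached it only through the treated libraries and was the gene overexpressed, so its rise with MT1G is no result. The other 4, MT1X, MT1F, MT1E and MT2A, rose in both experiments and had a positive difference. For MT1F the MT1G and empty vector libraries overlapped. The genes are near-identical copies, so reads could be split between them.

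Promoters of MT1X and MT2A were available to show the metal response element, searched as TGCACNC or TGCGCNC on both strands. Both held it, beside 29.3% of all promoters and 39.5% of those of genes tested. The 200 bases upstream of each, on the plus strand at chr16:56682270-56682469 and chr16:56608384-56608583, are shown with the matches in capitals, 4 in MT1X and 6 in MT2A.
MT1X: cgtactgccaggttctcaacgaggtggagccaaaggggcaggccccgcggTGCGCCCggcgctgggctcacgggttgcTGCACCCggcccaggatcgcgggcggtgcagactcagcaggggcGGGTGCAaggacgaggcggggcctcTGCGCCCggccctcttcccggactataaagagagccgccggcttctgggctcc
MT2A: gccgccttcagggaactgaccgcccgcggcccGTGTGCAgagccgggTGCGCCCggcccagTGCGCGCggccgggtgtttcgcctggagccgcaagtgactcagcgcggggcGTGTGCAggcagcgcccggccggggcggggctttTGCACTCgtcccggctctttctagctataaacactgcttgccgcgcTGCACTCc

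Zinc and copper carriers moved in both directions. SLC30A1, the zinc exporter of the cell surface, was at 21450, 22640 and 21360 with sorafenib against 2530, 2590 and 2317 with DMSO, and at 2273, 2632 and 2825 with MT1G against 2105, 1900 and 1752. It rose in both experiments, with a difference of 2.72 (SE 0.11, limma adjusted p 4.39e-14). The zinc importer genes SLC39A10, SLC39A8 and SLC39A14 were lower with sorafenib, at -1.06, -0.68 and -0.44, and higher with MT1G, at 0.32, 0.43 and 0.30. SLC30A7, a zinc carrier of the secretory pathway, and the copper pump ATP7A were opposed in that direction too. ATP7B, the copper pump of hepatocytes, fell with sorafenib by 2.15 and had a response of 0.05 to MT1G that was not called. Of 20 metal transport genes tested, 3 rose and 11 fell with sorafenib, 8 rose and 2 fell with MT1G, and the difference was positive for 3 and negative for 12. A difference was called for 75% of these 20, beside 54.3% of all genes tested.

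NF-kB target genes had mostly positive differences. CXCL3, a neutrophil chemokine (chromosome 4, 74036589 to 74038689), was at 1198, 1112 and 1123 with sorafenib and at 15.8, 13.5 and 15.3 with DMSO. It was at 11.9, 18.6 and 18.3 with MT1G and at 15.4, 22.4 and 19.8 with empty vector, where the groups overlapped. The difference was 6.41 (SE 0.30, limma adjusted p 1.92e-13). CXCL8 rose by 7.67 with sorafenib and by 2.04 with MT1G, and TNFAIP3, an NF-kB inhibitor, by 4.59 and 1.58. IL6 was raised by both, at 493, 538 and 547 with sorafenib against 15.8, 9.64 and 21.8 with DMSO, and at 166, 133 and 125 with MT1G against 10.96, 22.4 and 19.8.

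Of 27 genes on the NF-kB list 21 reached the minimum, of which 20 rose and 1 fell with sorafenib and 13 rose and 1 fell with MT1G. The difference was positive for 18 and negative for 1, with a median of 1.55. LIF was the exception, lower with sorafenib at -0.72 and higher with MT1G at 0.33. REL and PTGS2 had no called difference. PTGS2, the inducible cyclooxygenase, was at 2622, 2651 and 2790 with sorafenib against 587, 644 and 480, and at 2155, 2457 and 2055 with MT1G against 409, 432 and 428, a difference of -0.14 with a 95% interval from -0.41 to 0.13.

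An NF-kB site form, GGG followed after any 3 bases by TTCC, occurred on either strand in 10 of the 17 list promoters (58.8%). It occurred in 6.47% of all promoters and 7.62% of those of genes tested. All 10 genes with a match and all 7 without one rose with sorafenib. The list holds known NF-kB targets, so its share is no test of the responses. The form was in 8.98% of promoters with a called difference of 1 or above and in 7.09% with -1 or below. It was in 5.68% of promoters of opposed genes higher with sorafenib and in 9.67% of those lower. The promoter of CXCL3 on the minus strand, at chr4:74038690-74038889, is shown with its pair of overlapping matches in capitals.
CXCL3: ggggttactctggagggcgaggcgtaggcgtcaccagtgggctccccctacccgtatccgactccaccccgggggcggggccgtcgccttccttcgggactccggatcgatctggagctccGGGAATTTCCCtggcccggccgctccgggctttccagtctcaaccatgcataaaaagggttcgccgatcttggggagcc

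ERK output genes rose with both, with differences in both directions. Of 19 tested, 14 rose and 2 fell with sorafenib, and 15 rose and 0 fell with MT1G. The difference was positive for 10, among them EGR1, FOS and FOSL1, and negative for 6. EGR1, an immediate-early transcription factor, was at 867, 1068 and 944 with sorafenib against 18, 21.2 and 14.2, and at 18.9, 31.4 and 21.95 with MT1G against 13.2, 18.8 and 25.7, where the groups overlapped. DUSP4, an ERK phosphatase, and ETV4 rose more with MT1G, by 1.28 and 1.02, than with sorafenib, by 0.69 and 0.39. CCND1, cyclin D1, and SPRED1 were lower with sorafenib and higher with MT1G.

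GADD45A, GADD45B, ATF3, PPP1R15A and the histone gene H2AC6 were among the 8 largest positive differences at a mean of at least 100. GADD45A, a growth arrest gene (chromosome 1, 67685201 to 67688334), was at 14060, 14310 and 13360 with sorafenib and at 595, 568 and 528 with DMSO. It was at 404, 391.9 and 487 with MT1G and at 451, 434 and 406 with empty vector, which overlapped. The difference was 4.64 (SE 0.12, limma adjusted p 1.98e-17). GADD45B, ATF3 and PPP1R15A, the last a subunit of the phosphatase that restores translation, gave differences of 4.40, 3.83 and 3.78. The MT1G response of ATF3, 0.34, was called, whereas those of GADD45A, GADD45B and PPP1R15A, -0.01, 0.09 and 0.06, were not. Heat shock genes were split: of 16 tested, 3 rose and 8 fell with sorafenib, 3 rose and 4 fell with MT1G, and the difference was positive for 5 and negative for 7. A difference was called for 75% of these 16, beside 54.3% of all genes tested.

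Replication-dependent histone genes rose with sorafenib and few were called with MT1G. Transcripts of this family usually carry a stem-loop in place of poly(A), and the labels give the molecule as polyA RNA. H2AC6 was at 10620, 11230 and 10660 with sorafenib against 272, 272 and 272 with DMSO, and at 464, 358 and 370 with MT1G against 230, 208 and 251. Its difference was 4.53 (SE 0.13, limma adjusted p 1.09e-16). Of 59 genes 21 reached the minimum in both tables and 38 did not. All 21 rose with sorafenib, 4 rose and 1 fell with MT1G, and H2BC8 was opposed at 4.23 and -0.77. Histone genes are near-identical copies and their reads are uncertain.

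**Figure D3:**
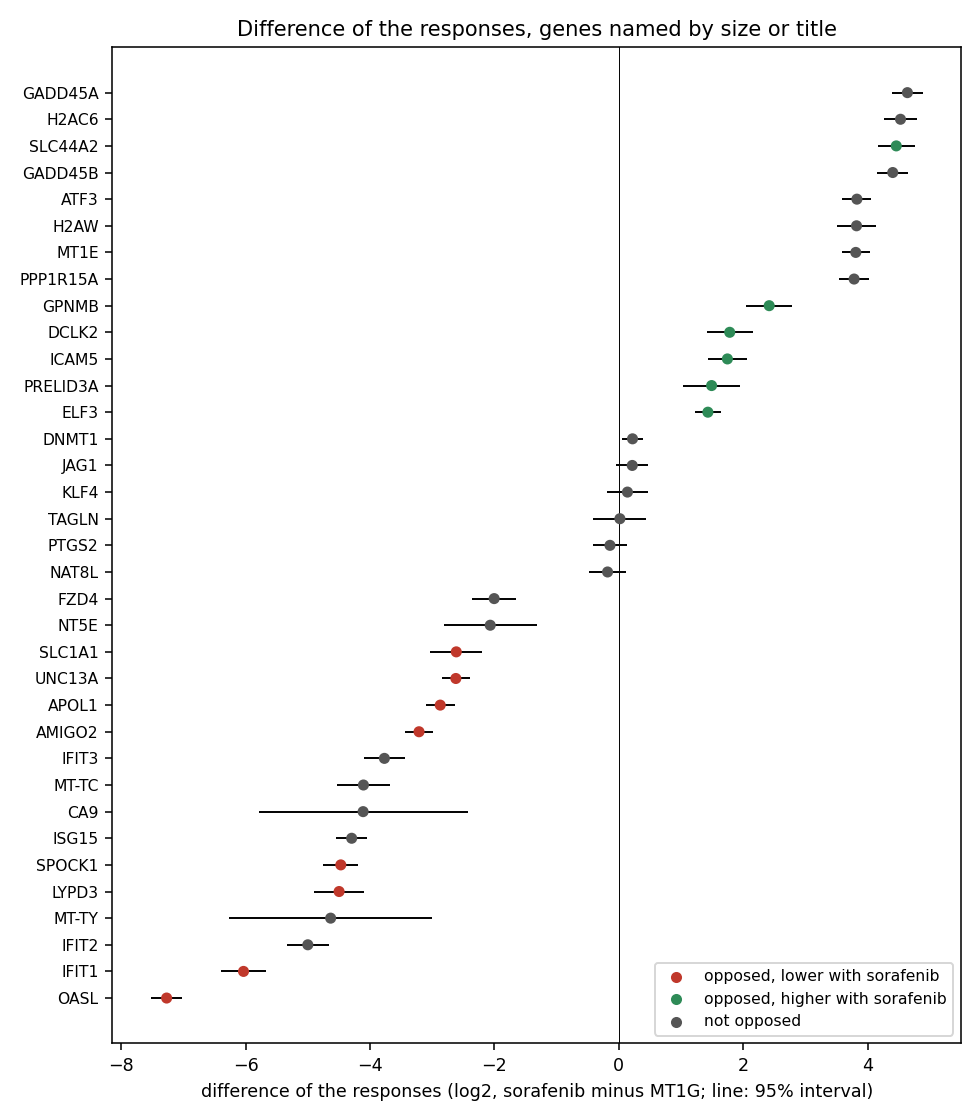
Difference of the responses (log2, sorafenib response minus MT1G response) for the genes named by the size of a difference or response and for KLF4, CA9 and DNMT1, as points with 95% intervals. Red points are lower with sorafenib and higher with MT1G, green points the reverse and grey points not opposed; OASL at -7.27 and GADD45A at 4.64 are at the ends of the genes shown, which leave out those named only as list members, and the interval of KLF4 crosses 0.

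The genes named in the title of the study did not all differ. KLF4, a zinc finger transcription factor (chromosome 9, 107484852 to 107489769), was at 628, 632 and 695 with sorafenib and at 83.2, 83.9 and 75.3 with DMSO. It was at 400, 434 and 453 with MT1G and at 61.4, 52.8 and 60.7 with empty vector. KLF4 rose 7.98-fold with sorafenib and 7.25-fold with MT1G, and the difference of 0.14 (SE 0.16, 95% interval -0.19 to 0.47) did not pass (limma adjusted p 0.484). MT1G was at 0 in every control library, so its fitted responses depend on the pseudocount, and no difference is given for it.

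CA9, the carbonic anhydrase of hypoxic tumour cells (chromosome 9, 35673928 to 35681159), was at 3.38, 9.97 and 1.07 with sorafenib and at 245, 426 and 176 with DMSO. With MT1G it was at 18.9, 11.6 and 26.3 against 62.5, 49.2 and 77.0, and it fell in both experiments. The response was -5.84 to sorafenib and -1.73 to MT1G, a difference of -4.11 (SE 0.76, limma adjusted p 0.000737). DNMT1, the maintenance DNA methyltransferase (chromosome 19, 10133346 to 10194953), was at 6362, 6676 and 6523 with sorafenib and 6998, 6664 and 6743 with DMSO, which overlapped. It was at 6547, 6241 and 6243 with MT1G and 7612, 7687 and 7810 with empty vector, which were apart. The difference of DNMT1 was 0.22 (SE 0.08, limma adjusted p 0.0279), and it was no longer called with TMM factors or without any 1 of 5 libraries, which were sorafenib libraries 2 and 3, DMSO library 2 and empty vector libraries 2 and 3. The replicate block ended the call too.

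Other hypoxia-inducible genes also differed. Of 26 tested outside glycolysis, 5 rose and 18 fell with sorafenib, 9 rose and 3 fell with MT1G, and the difference was positive for 3 and negative for 16. CA12, PLOD2, P4HA1, P4HA2, ERO1A and ANGPTL4 were lower with sorafenib and higher with MT1G. PLOD2 and both P4HA genes encode collagen-modifying hydroxylases, and PLOD2 had responses of -1.71 and 0.69. ADM, the vasodilator adrenomedullin, was at 2751, 2678 and 2682 with sorafenib against 1102, 1256 and 1059, and at 766, 744 and 727 with MT1G against 823, 826 and 807. Of its responses only that to sorafenib was called, and the difference was 1.39 (SE 0.10, limma adjusted p 3.08e-10).

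Unfolded protein genes of the endoplasmic reticulum had mostly negative differences. Of 24 unfolded protein genes 4 rose and 16 fell with sorafenib, 7 rose and 1 fell with MT1G, and the difference was positive for 3 and negative for 18. The chaperone genes HSP90B1 and CALR and the degradation adaptor SEL1L were lower with sorafenib and higher with MT1G, and the sensor gene ERN1 was opposed the other way at 0.85 and -0.35. Of 13 mitochondrially encoded protein genes 12 fell and 0 rose with sorafenib, and 4 rose and 0 fell with MT1G. MT-CO1, a cytochrome oxidase subunit, was at 117500, 121600 and 124300 with sorafenib against 307700, 278000 and 283400, and at 283200, 275000 and 240400 with MT1G against 199900, 221100 and 250700, where the groups overlapped. MT-CO1, MT-ND4, MT-ND6 and MT-ATP6 were the opposed members. The difference was negative for 11 of the 13. Of 40 nuclear genes of the respiratory chain, 1 rose and 32 fell with sorafenib, and 1 rose and 13 fell with MT1G. Their difference was negative for 18, positive for 1 and not called for 21, so that 47.5% were called, beside 54.3% of all genes tested.

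Most tested genes of sterol synthesis, NRF2 antioxidant defence and the ribosome fell with sorafenib, and fewer fell with MT1G. Over all genes tested 37.1% fell with sorafenib and 14.9% with MT1G. The median responses of the 3 lists, in that order, were -0.65, -0.62 and -0.47 to sorafenib, beside -0.080 over all genes. To MT1G they were -0.14, -0.14 and -0.17, beside -0.0015 over all genes. Of 25 sterol synthesis genes 24 fell with sorafenib and 8 with MT1G, and 19 had a negative difference. SQLE, squalene epoxidase, fell by 2.45 with sorafenib and by 0.23 with MT1G. Of 27 NRF2 antioxidant genes 24 fell with sorafenib and 11 with MT1G, and 18 had a negative difference. HMOX1, heme oxygenase, was at 609, 555 and 609 with sorafenib against 3121, 2937 and 3569, and at 3214, 2597 and 3016 with MT1G against 3112, 3079 and 3093, which overlapped. Of 71 cytosolic ribosomal protein genes 67 fell with sorafenib and 24 with MT1G, 40 had a negative and 1 a positive difference, and the median difference was -0.32. Of 34 ATF4 amino acid response genes 21 had a positive and 8 a negative difference, with SESN2 at 2.93 and SLC7A11 at -1.83.

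Cell cycle genes were opposed in both directions. Of 35 S phase genes 14 rose and 11 fell with sorafenib, and 0 rose and 17 fell with MT1G. Over all genes tested the shares were 29.6% and 37.1% with sorafenib and 14.2% and 14.9% with MT1G. The replication genes CDT1 and CDC45 and the transcription factor genes E2F2 and E2F8 were higher with sorafenib and lower with MT1G. CDT1, a licensing factor, was at 5877, 5879 and 5878 with sorafenib against 4248, 4158 and 4920, and at 4073, 3648 and 3712 with MT1G against 4535, 4684 and 4959. Of 33 genes of G2 and mitosis, CDC20, AURKB, KIF2C and CENPA were higher with sorafenib and lower with MT1G, and BUB1, TTK, DLGAP5 and ANLN were the reverse. TOP2A fell by 2.10 with sorafenib and had a response of 0.27 to MT1G that was not called.

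**Figure D4:**
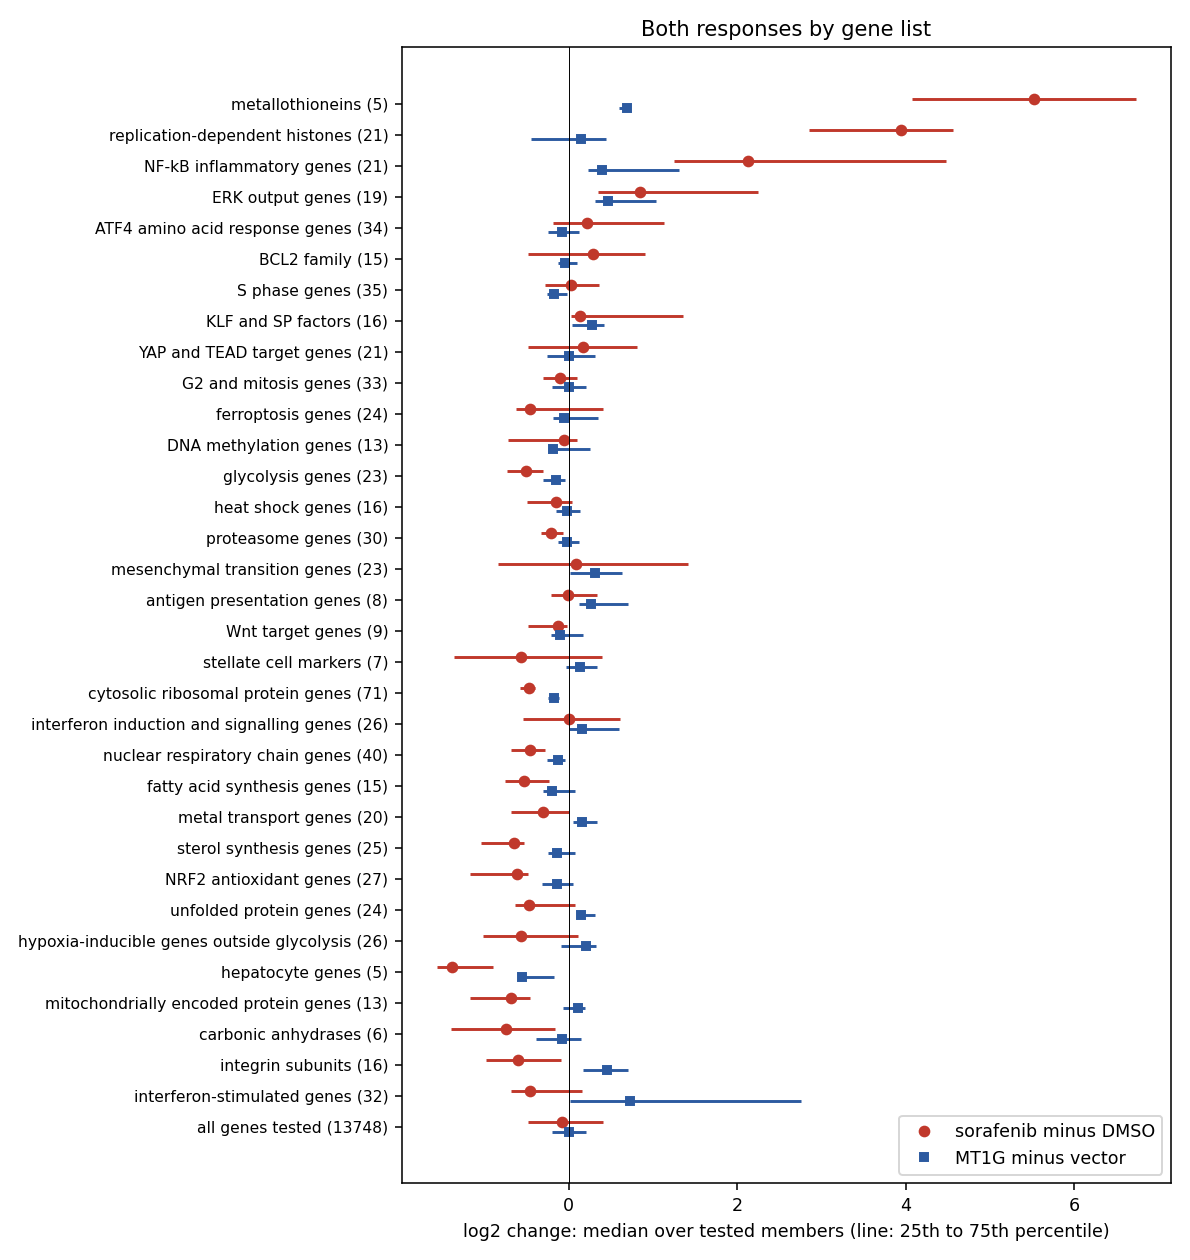
Median response to sorafenib (red circles) and to MT1G (blue squares) over the tested members of the gene lists shown, with lines from the 25th to the 75th percentile and the number tested in brackets (log2 change). Metallothioneins, histones and NF-kB genes lie furthest right with sorafenib, while interferon-stimulated genes and integrin subunits lie left of 0 with sorafenib and right of 0 with MT1G.

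Some genes moved in the same direction by different amounts. Both responses were called upward with a larger one to sorafenib for 272 genes (1.98%) and a larger one to MT1G for 47 (0.342%). Both were called downward with a larger one to sorafenib for 374 (2.72%) and to MT1G for 25 (0.182%). Without a called difference both rose for 392 genes (2.85%) and both fell for 669 (4.87%). Besides IFIT2 and IFIT3, NT5E, the surface enzyme CD73, rose by 0.82 with sorafenib and by 2.89 with MT1G, and FZD4, a Wnt receptor, by 0.56 and 2.57. For 807 genes called in the same direction with a mean of at least 100, the 95% interval of the difference lay within -0.5 to 0.5. Among those with the largest responses were KLF4, PTGS2, JAG1, a Notch ligand that rose by 1.34 and 1.12, and NAT8L and TAGLN, which fell by 1.38 and 1.20 and by 1.15 and 1.16.

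The opposed classes differed in gene span, the distance from a gene's start to its end in RefSeq (GRCh38.p14), which was matched for 12615 of the 13748 genes. The median span was 58.5 kb for genes lower with sorafenib and higher with MT1G, 18.4 kb for the reverse and 28.9 kb over all genes. With the genes in 10 equal groups by span, from the shortest to the longest, the share lower with sorafenib and higher with MT1G went from 0.792% to 10.2%. The share opposed the other way was 2.54% in the shortest group, 5.39% in the next and 1.59% in the longest. Among genes with a mean of at least 100 in both tables the first share went from 1.0% to 12%. Median responses moved with span too, from -0.24 in the shortest group to -0.03 in the fourth and -0.15 in the longest for sorafenib, and from -0.13 in the shortest to 0.11 in the longest for MT1G. SPOCK1 spans 524 kb and ITGA2 105 kb, while OASL, IFIT1 and LYPD3 span 21.5, 13.9 and 4.82 kb.

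**Figure D5:**
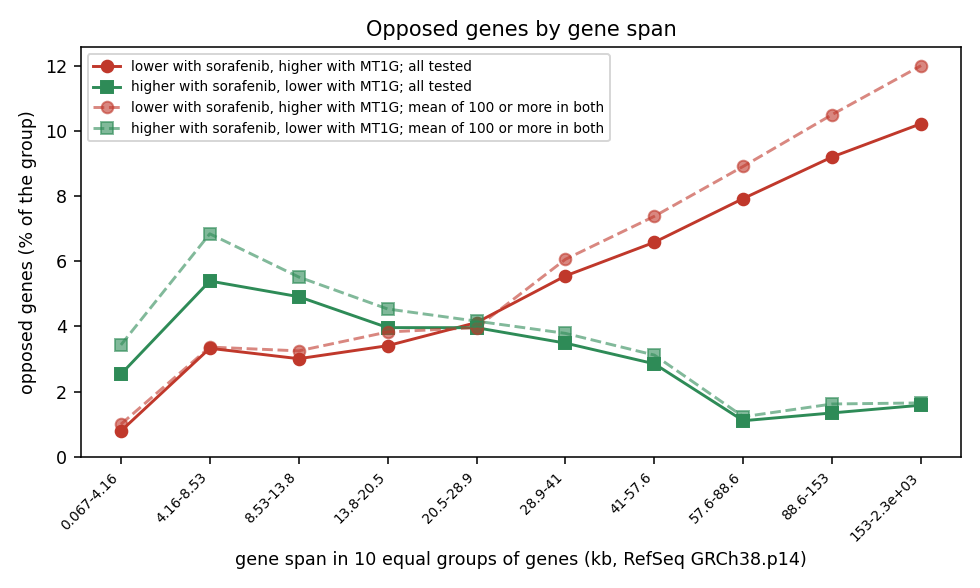
Share of genes opposed in each direction (vertical axis, percent of the group) in 10 equal groups of genes by span (horizontal axis, kb). The share lower with sorafenib and higher with MT1G (red) is 0.792% in the shortest group and 10.2% in the longest, and the share of the reverse (green) is highest at 5.39% in the next to shortest; dashed lines give genes with a mean of at least 100.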

How the data were processed

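The 12 polyA RNA libraries of cells labelled Huh7 were deposited by the authors as 2 tables of normalized read counts, a signal in which each library's whole reads were divided by 1 factor. Every value was a whole number of reads within 0.001 of the library's step, so reads were recovered. The tables were normalized separately, so levels are not compared across them. The submitters' processing notes list cutadapt, HISAT2 1.1.0, featureCounts 1.6.1 and DESeq2 with the build hg38. How reads of overlapping or duplicated genes were counted is not given in the sources used here. Table columns carry the group and a number that was not tied to a single library's label.

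Values were taken as log2(value + 1), genes with a mean of at least 10 in both tables were kept, and 1 limma 3.58.1 model (R 4.3.3) with 4 group means, a trend and robust variance gave both responses and their difference, two-sided, with Benjamini-Hochberg adjustment over 13748 genes at 0.05. All 4 groups shared 1 variance for each gene, although their spread was unequal. Library weights estimated by group, lower where libraries vary more, were 0.5387 for MT1G, 0.9271 for DMSO, 1.304 for empty vector and 1.535 for sorafenib. MT1G responses may therefore look more certain than they are. A gene was opposed where both responses and the difference passed and the responses had opposite signs. Named genes were the 4 title genes, the 8 largest positive and negative differences at a mean of at least 100 whose 9 pairwise changes did not overlap, the 6 opposed genes of each direction with the largest smaller response, 4 and 5 same-direction genes, and up to 3 members of each list. Members, lists and rules were chosen with earlier results of these data known. Integrin subunits, the TXNIP list and EDN1, CIRBP, IL11, AKR1C1 and SLC7A11 were chosen after their values were seen, as were list members and opposed genes named by their class. Alternatives included edgeR 4.0.16, DESeq2 1.42.0, TMM factors, other pseudocounts and minimums, a replicate block and leaving out each library. Promoter sequences and gene positions are from RefSeq (GRCh38.p14). The ATAC-seq peaks and the authors' expression matrices are not used here, and some genes are not reported here.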

Additional observations from a re-analysis of the deposited data

How the results depend on the processing

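For 123 named genes under up to 22 alternative settings, the difference kept its direction in 2689 of 2693 values, the exceptions being 4 for TAGLN, whose difference was not called, and its side of the threshold in 2670. Of the changes of side 7 were for DNMT1, 1 of them with the replicate block. Most of the 123 genes were named for the size or p-value of their difference in these same libraries. Their kept direction follows largely from that choice and is no further support. The count of called differences was 1230 positive and 1255 negative when a size of at least 1 was also asked, and the opposed counts were then 158 higher and 408 lower with sorafenib. Leaving out 1 library at a time gave 3091 to 3366 positive and 3865 to 4177 negative differences, 268 to 475 genes higher with sorafenib and lower with MT1G, and 502 to 772 opposed the other way. The lowest of these, 268, came without empty vector library 3. The share of positive among called differences was 44.8%, and 51.7% with each response centred on its median, 51.9% with no minimum and 40.9% with TMM factors. Opposed genes shared with the main result ranged from 67.1% without MT1G library 2 to 99.5% with a pseudocount of 0.5. With each response from a fit of its own 6 libraries, 909 genes were opposed instead of 1103, and 79.1% of the 1103 were among them. The column numbers showed no pairing, with correlations of same-numbered treated and control libraries from -0.15 to 0.04. Those of differently numbered ones ran from -0.08 to 0.13. Whether samples were paired in another order was not tested. With the number as a replicate block, 3163 positive and 3885 negative differences were called, and 310 genes were opposed as higher and 591 as lower with sorafenib. With 3 libraries a group and 16549330 reads in the shallowest, genes near the minimum mean of 10 are the least certain. The cause of these changes was not tested.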
